A study of Mus musculus with 18 samples.

Results

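The 10 genes described here encode core factors of heart muscle development, and they were followed through differentiation and after a short induction of GLI1, a zinc-finger activator of Hedgehog target genes. They are Gata4, Gata5, Gata6, Hand1, Hand2, Mef2a, Mef2c, Isl1, Hopx and Smyd1, taken by symbol from the table of raw counts, where all 10 were found among 23337 genes. All 10 passed the filter on low counts that 14892 genes passed. The cells were mouse embryonic stem cells of the line GLI1-FTA, made in A2Lox.cre, grown toward cardiac progenitors and cardiomyocytes. The GLI1 overexpression (GLI1 OE) groups received 500 ng/ml doxycycline (dox) for 24 hours between day 5 (D5) and D6, were washed and were harvested at D6 (n = 3), D8 (n = 2) or D12 (n = 2). The control groups came from the same line, were labelled untreated and were harvested at D5 (n = 4), D6 (n = 3), D8 (n = 2) or D12 (n = 2). No group had dox without the induced gene, so an effect of the drug and one of GLI1 cannot be told apart, and all groups derive from 1 engineered line. The labels do not say that replicates were separate cultures, so p-values measure the spread between these libraries, which may be technical.

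GATA factors are zinc-finger proteins that bind GATA motifs, HAND factors are basic helix-loop-helix proteins that bind E-boxes, and MEF2 factors are MADS-box proteins that bind A/T-rich sites of muscle genes. Isl1 is a LIM-homeodomain factor that marks second heart field progenitors, and it declines as these cells become muscle. Together with partner factors such as NKX2-5 and TBX5 these proteins bind shared enhancers of sarcomere and ion channel genes, and several of them keep up each other's transcription.

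Total counts per library were 18470785 to 26184339, and the counts of the 10 genes lay between 47, for Hopx in D5 control library 3, and 14667. Libraries are named by the number in their column name. The induction was seen in the counts: Gli1 had 909 ± 134 CPM (counts relative to library size, as scaled by edgeR) in D6 GLI1 OE cells, against 14 ± 7.28 CPM in D6 controls (SD, n = 3 each; log2 fold change 6.02 ± 0.59 SE, edgeR adjusted p = 4.31e-05). The Hedgehog receptor gene Ptch1 had 1010 ± 98.2 CPM in D6 GLI1 OE cells and 53.2 ± 19.7 CPM in D6 controls (4.25 ± 0.35, edgeR adjusted p = 1.53e-05). Of 6 cardiomyocyte markers (Tnnt2, Myh6, Actc1, Ttn, Myl7 and Nkx2-5) none was at 0 in any group. The same held for 10 endothelial and for 12 smooth muscle and mesenchyme markers, so this does not establish the labelled cardiac identity.

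Promoters of 7 of the 10 genes were taken from RefSeq's table (GRCm38.p6). The selection of entries left Gata4, Gata6 and Hand1 without a promoter, which is no evidence that RefSeq lacks them. The promoters of all 7 are shown, with the first start where there are several, because the results turn on them: Gata5, Hand2, Mef2c and Smyd1 were lower with GLI1 OE in every pair of D6 libraries, and Isl1, Mef2a and Hopx passed the test between days in controls. Each sequence runs 5′ to 3′ along the gene over the 250 bases before its start. Capitals mark matches on either strand to the GATA motif (AGATA or TGATA followed by A or G), the GLI motif (GACCACCCA), the MEF2 motif or the TATA motif (TATAAA). Hand2 (chr8:57320733-57320982) and Mef2c (chr13:83503784-83504033) are on the plus strand and the other 5 on the minus strand: Gata5 (chr2:180334680-180334929), Isl1 (chr13:116309689-116309938), Smyd1 (chr6:71262282-71262531), Mef2a (chr7:67372859-67373108) and Hopx (chr5:77115124-77115373).
Gata5: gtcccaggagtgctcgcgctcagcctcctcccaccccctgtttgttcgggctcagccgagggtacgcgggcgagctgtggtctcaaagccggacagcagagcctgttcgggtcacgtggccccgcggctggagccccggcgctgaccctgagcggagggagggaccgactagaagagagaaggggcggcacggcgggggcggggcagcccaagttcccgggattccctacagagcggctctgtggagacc
Hand2: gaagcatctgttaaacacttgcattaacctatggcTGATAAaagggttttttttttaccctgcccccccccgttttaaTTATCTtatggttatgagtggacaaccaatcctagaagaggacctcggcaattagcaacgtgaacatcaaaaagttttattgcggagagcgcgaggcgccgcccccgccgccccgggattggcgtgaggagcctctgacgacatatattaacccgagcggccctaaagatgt
Mef2c: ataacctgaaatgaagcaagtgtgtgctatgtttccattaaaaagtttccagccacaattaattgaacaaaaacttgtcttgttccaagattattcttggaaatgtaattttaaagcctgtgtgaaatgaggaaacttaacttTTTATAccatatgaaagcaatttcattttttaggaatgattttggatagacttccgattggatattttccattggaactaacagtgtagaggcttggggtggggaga
Isl1: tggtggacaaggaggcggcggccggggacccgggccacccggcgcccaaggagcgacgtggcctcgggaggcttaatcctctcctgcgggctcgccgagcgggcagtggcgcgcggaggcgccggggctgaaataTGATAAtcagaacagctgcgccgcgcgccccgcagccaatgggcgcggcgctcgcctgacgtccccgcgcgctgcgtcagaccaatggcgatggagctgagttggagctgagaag
Smyd1: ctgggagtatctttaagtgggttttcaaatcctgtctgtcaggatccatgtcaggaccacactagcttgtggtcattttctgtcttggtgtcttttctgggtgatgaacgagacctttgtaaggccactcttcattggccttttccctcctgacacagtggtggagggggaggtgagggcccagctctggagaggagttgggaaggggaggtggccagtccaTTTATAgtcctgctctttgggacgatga
Mef2a: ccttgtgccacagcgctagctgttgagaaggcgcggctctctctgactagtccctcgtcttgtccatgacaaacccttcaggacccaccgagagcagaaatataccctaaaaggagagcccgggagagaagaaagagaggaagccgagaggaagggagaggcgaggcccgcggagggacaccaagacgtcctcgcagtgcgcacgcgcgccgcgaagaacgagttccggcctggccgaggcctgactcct
Hopx: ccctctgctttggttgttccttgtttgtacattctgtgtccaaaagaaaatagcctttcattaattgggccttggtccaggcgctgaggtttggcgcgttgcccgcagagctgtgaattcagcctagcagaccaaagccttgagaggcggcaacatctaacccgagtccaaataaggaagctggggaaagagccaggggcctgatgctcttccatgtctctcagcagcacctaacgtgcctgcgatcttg

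Hand2 held GATA matches 215 and 172 bases before its start and Isl1 held one 115 bases before its start, while 26.5% of 32851 promoter windows of this length held at least 1. The windows of Gata5, Mef2c, Mef2a, Hopx and Smyd1 held none. A TATA match lay 28 bases before the start of Smyd1 and 107 bases before the first start of Mef2c, and 12.4% of windows held one. Another start of Mef2c, not printed, had a TATA match 22 bases before it. No window of the genes searched held the GLI motif (0.225% of all windows) or the MEF2 motif (0.508%), and Gata4, Gata6 and Hand1 were not searched. The E-box (CANNTG, 66.2% of windows, not in capitals) was found in Gata5, Hand2, Mef2c and Isl1 among the sequences printed. None of the matches overlapped another motif searched, and a match is a string of letters, not a measured binding site.

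**Figure D1:**
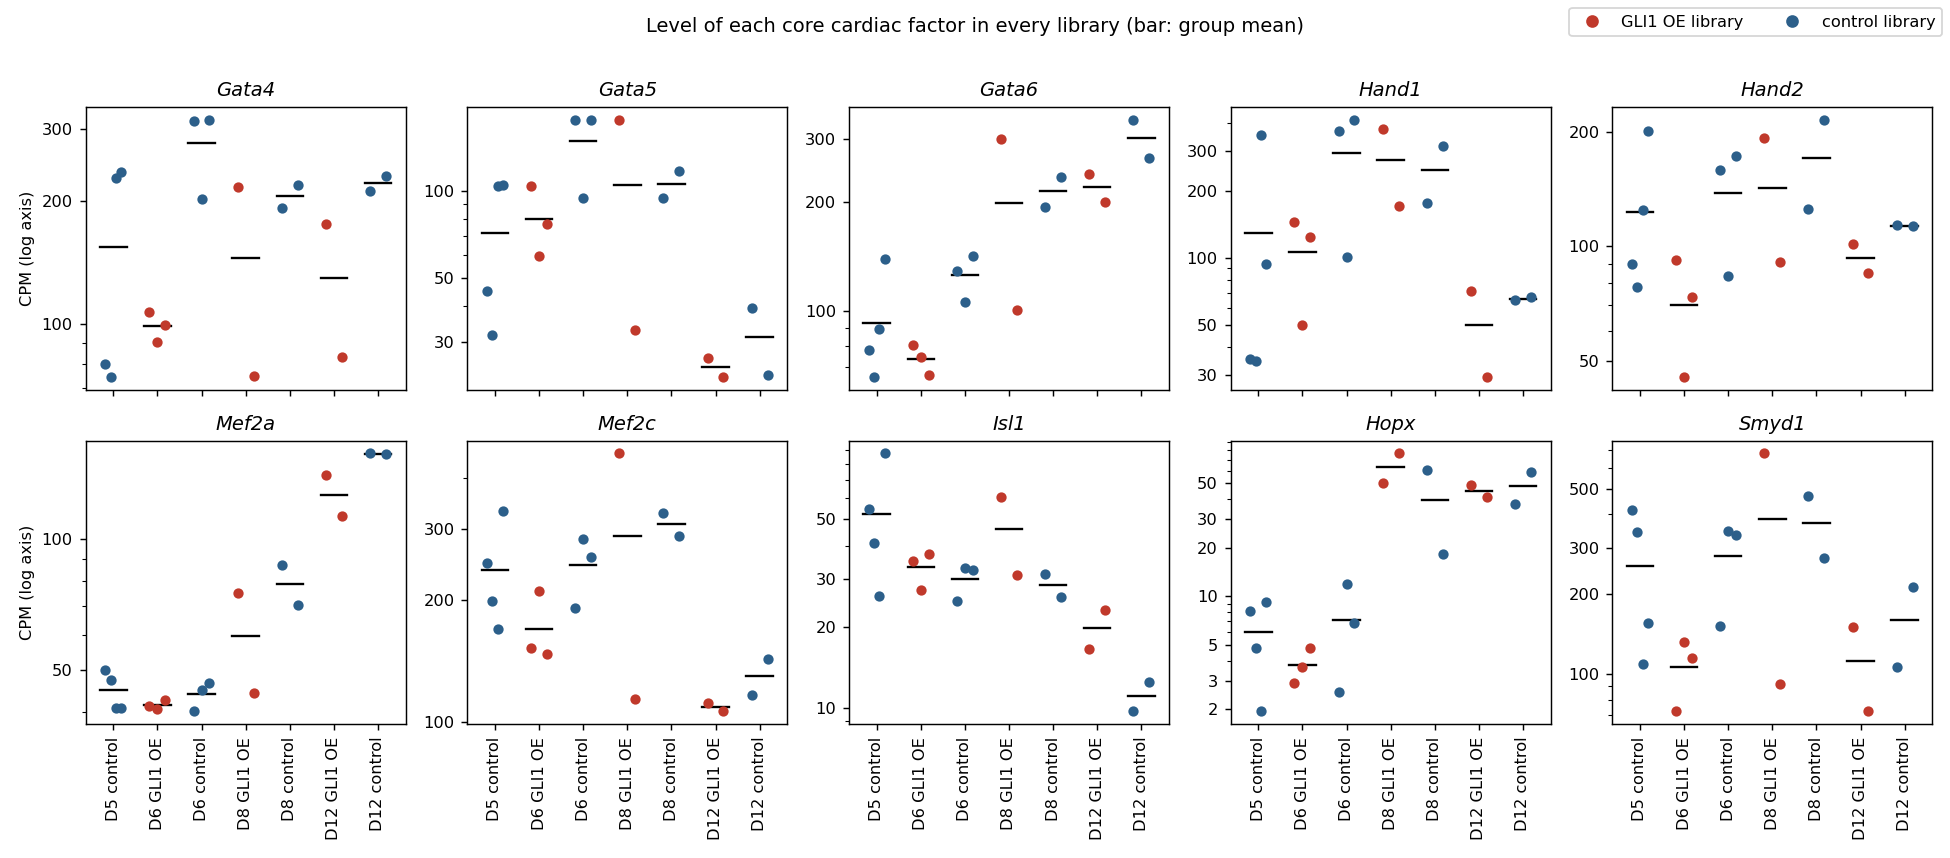
Level of each of the 10 genes in every library, in CPM on a log axis, for the 7 groups. Points are libraries (red, GLI1 OE; blue, control) and bars are group means. The D6 GLI1 OE points of Gata4, at 90.4 to 107 CPM, lie below all D6 control points, and Mef2a is highest in D12 controls.

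The first comparison asked what the genes do while GLI1 is induced, at D6. No member passed the edgeR test at D6 (4.14% of all genes passed). Of the 10 estimates 9 were below 0, against 53% of all estimates. In each of 3 library pairs 7 genes were lower in GLI1 OE, as were 32.8% of all genes. The 10 genes were measured in the same libraries and chosen with earlier results of these data known, so these counts are descriptions. The median log2 fold change of the 10 genes was -0.90, beside -0.015 for all genes tested. An unadjusted p under 0.05 was reached by 3 of them, Gata4, Gata6 and Hand2, and by 15.8% of all genes. The D6 groups did not overlap for Gata4, Gata6 and Smyd1, all lower, as for 13.8% of all genes. Values below are given for D6 GLI1 OE libraries 4, 12 and 16, against D6 control libraries 3, 11 and 15.

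Gata4, needed for ventral fusion of the heart tube and for cardiomyocyte growth, had 107, 90.4 and 99.8 CPM in GLI1 OE cells, against 314, 203 and 316 CPM in controls. Each GLI1 OE library was below the lowest control, library 11. The log2 fold change was -1.49 ± 0.47 SE (95% interval -2.51 to -0.47, unadjusted p = 0.00747, edgeR adjusted p = 0.113). Gata6, which acts with Gata4 and also serves endoderm, had 80.6, 74.9 and 66.5 CPM in GLI1 OE cells, against 129, 106 and 142 CPM in controls. These groups also did not overlap (log2 fold change -0.77 ± 0.33, edgeR adjusted p = 0.258). Gata5, a GATA factor of the endocardium and early heart field, had 104, 59.7 and 77.0 CPM in GLI1 OE cells, against 177, 94.9 and 176 CPM in controls. Its groups overlapped through GLI1 OE library 4 and control library 11 (log2 fold change -0.89 ± 0.54, edgeR adjusted p = 0.490).

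Hand1, a factor of the left ventricle and of extraembryonic mesoderm, had 144, 50.3 and 124 CPM in GLI1 OE cells, against 369, 101 and 415 CPM in controls. Libraries 12 and 11, which carry adjacent numbers, were the lowest of their groups, and the groups overlapped (log2 fold change -1.47 ± 0.82, edgeR adjusted p = 0.427). Hand2, a factor of the right ventricle and second heart field, had 91.9, 45.1 and 73.6 CPM in GLI1 OE cells, against 159, 83.7 and 173 CPM in controls. Here too library 12 and library 11 were the lowest of their groups (log2 fold change -0.98 ± 0.40, unadjusted p = 0.0286, edgeR adjusted p = 0.233).

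Mef2c, the MEF2 factor first expressed in the heart field, had 152, 211 and 147 CPM in GLI1 OE cells, against 192, 283 and 256 CPM in controls. The groups overlapped, with library 12 and library 11 this time the highest of each (log2 fold change -0.52 ± 0.38, edgeR adjusted p = 0.587). Mef2a, the MEF2 factor that prevails in the postnatal heart, had 41.1, 40.6 and 42.5 CPM in GLI1 OE cells, against 40.1, 45.0 and 46.6 CPM in controls. Its estimate of -0.08 had the narrowest interval of the 10, from -0.43 to 0.26 (edgeR adjusted p = 0.892). Smyd1, a muscle lysine methyltransferase that helps to assemble myosin and that in the heart is required for Hand2 expression, had 72.6, 132 and 115 CPM in GLI1 OE cells, against 152, 348 and 334 CPM in controls. Its groups did not overlap, and GLI1 OE library 4 and control library 3 were the lowest of each (log2 fold change -1.38 ± 0.66, edgeR adjusted p = 0.329).

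Isl1, the progenitor factor, was the only member with an estimate above 0, with 35.0, 27.4 and 37.3 CPM in GLI1 OE cells, against 24.9, 33.0 and 32.6 CPM in controls. The groups overlapped, and the interval of the log2 fold change (0.14) ran from -0.62 to 0.90 (edgeR adjusted p = 0.924). Hopx, an atypical homeodomain protein that does not bind DNA and restrains serum response factor, had 2.89, 3.65 and 4.76 CPM in GLI1 OE cells, against 2.55, 12 and 6.82 CPM in controls. Control library 3 lay below every GLI1 OE library (log2 fold change -0.92 ± 0.60, edgeR adjusted p = 0.541).

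**Figure D2:**
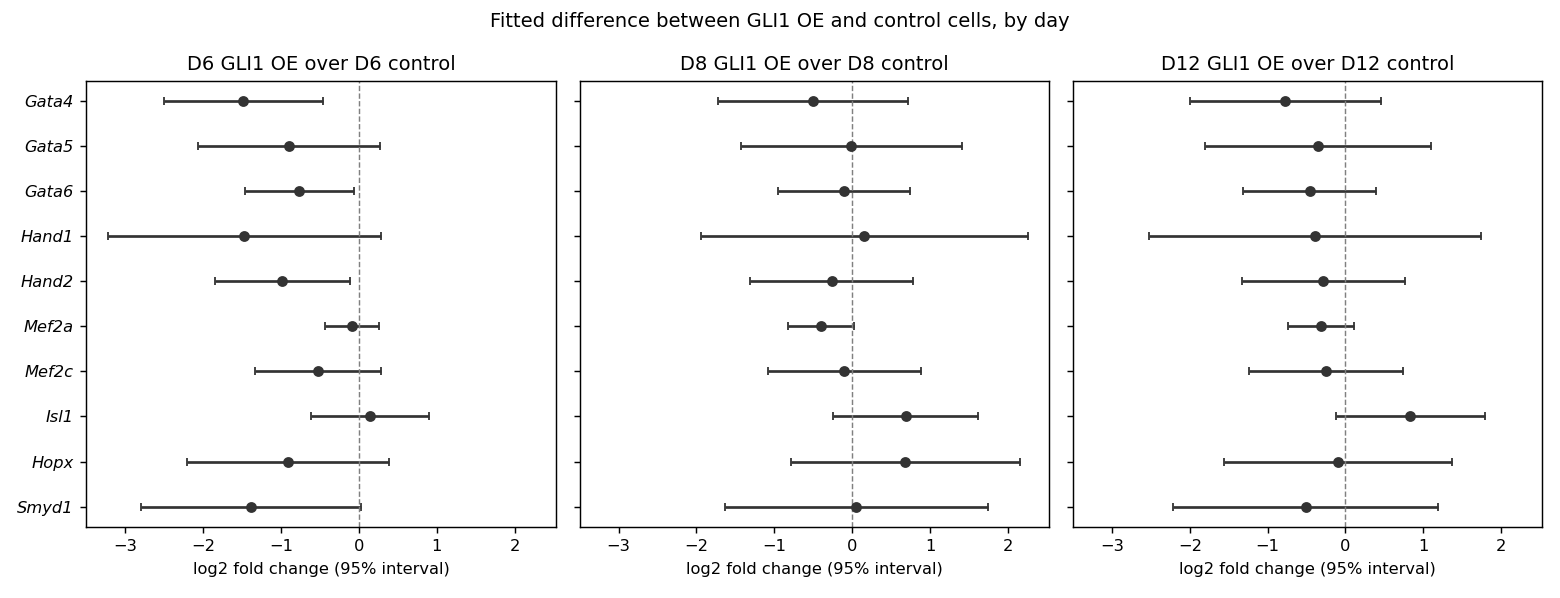
Log2 fold change of GLI1 OE over control at each day for the 10 genes, with the 95% interval of the edgeR fit to all 18 libraries (points, estimates; lines, intervals). At D6 the intervals of Gata4, Gata6 and Hand2 lie below 0, while at D8 and D12 every interval includes 0.

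Same-day libraries with adjacent numbers deviated from their group means together at D6 (correlation over genes 0.45 to 0.62 in 3 pairs). Within the pairs Gata4, Gata5, Gata6, Hand1, Hand2, Mef2c and Smyd1 were lower in GLI1 OE in 3 of 3, as were 32.8% of all genes. The log2 ratio was -1.67 to -1.17 for Gata4, -1.54 to -1.06 for Smyd1, -1.74 to -1.01 for Hand1 and -1.23 to -0.79 for Hand2. The D6 call depended on the model. DESeq2 on the same 18 libraries called Gata4 (adjusted p = 0.0223) and 6.92% of genes. A fit of the D6 libraries alone called Gata4 (edgeR adjusted p = 0.00378) and Gata6 (0.0140), and 9.19% of genes. With the pairs as a replicate block in the fit to all days, no member passed and 4.48% of genes did. With the D6 libraries alone and that block, a model chosen after the data had been seen, the 7 genes lower in all pairs passed, as did 33.6% of genes, with edgeR adjusted p from 0.00120 for Smyd1 to 0.0314 for Mef2c. The authors' deposited table for D6 has adjusted p under 0.05 for Gata4 (7.36e-14), Gata6 (5.19e-06), Smyd1 (0.000217), Gata5 (0.0121) and Hand2 (0.0149). The same holds for 12.9% of its 15045 genes. Their tables for D8 and D12 have adjusted p under 0.05 for no member. At D8 0.0727% of 15138 genes passed there, and at D12 0.523% of 14917.

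**Figure D3:**
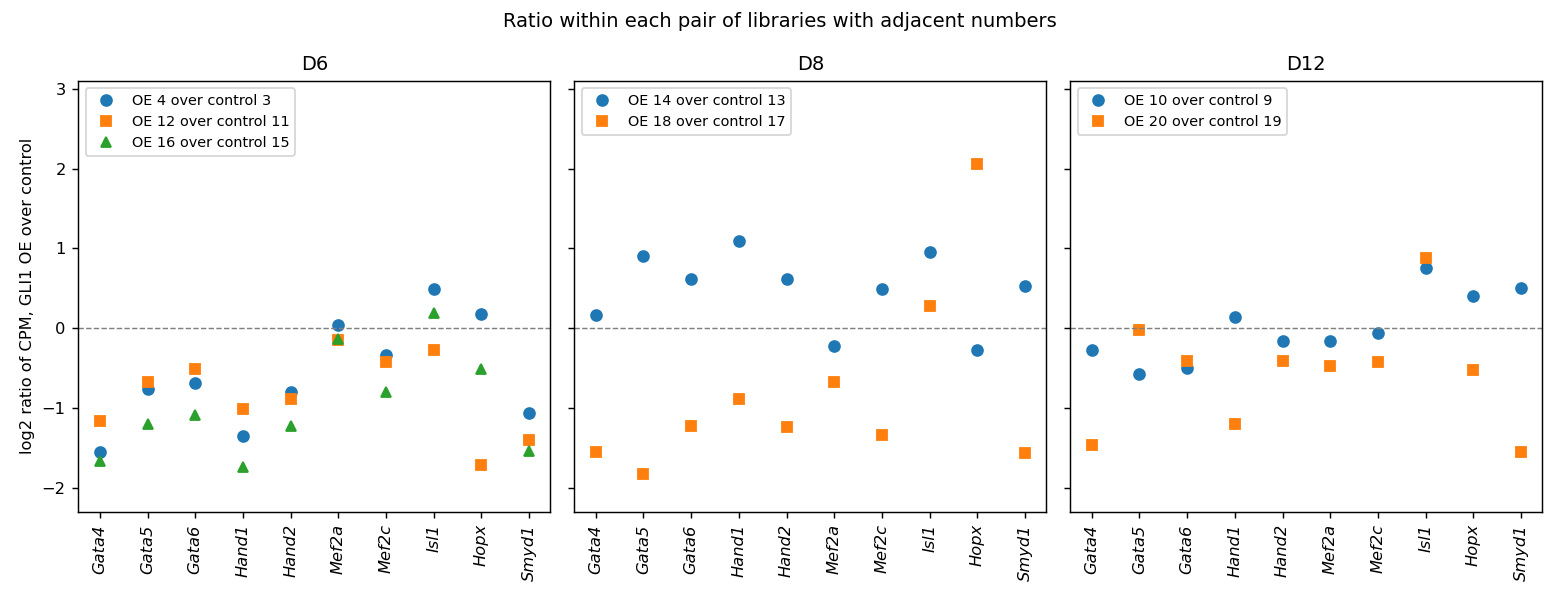
Log2 ratio of GLI1 OE over control CPM within each pair of libraries with adjacent numbers, for the 10 genes at D6, D8 and D12 (symbols, pairs). At D6 all 3 symbols are below 0 for 7 genes, and at D8 the symbols of most genes lie on opposite sides of 0.

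Markers of cell types moved at D6 beside these genes. The sum of the 6 cardiomyocyte markers was 914 to 3001 CPM in GLI1 OE libraries, against 3143 to 7162 CPM in controls, and that of 12 smooth muscle and mesenchyme markers was 3271 to 4932 CPM, against 5434 to 6773 CPM. The sum of 14 endoderm markers was 108 to 138 CPM in GLI1 OE libraries, against 11 to 16.3 CPM in controls, with Foxa2 at 97.6 ± 13.3 CPM of it, against 0.567 ± 0.278 CPM (SD, n = 3 each). The 10 endothelial markers summed to 463 to 802 CPM in GLI1 OE libraries and 337 to 728 CPM in controls. The 6 pluripotency markers summed to 11 to 14.8 CPM in GLI1 OE libraries, against 25.5 to 38.1 CPM in controls, with no overlap. The 8 blood markers summed to 150.4 to 283 CPM in GLI1 OE libraries, against 227 to 750.4 CPM in controls, and the 12 neural and motor neuron markers to 29.3 to 36.3 CPM, against 24.3 to 32.2 CPM, both with overlap. The 8 skeletal muscle markers summed to at most 1.64 CPM in any D6 library. The part of these changes in the result was not tested, and in bulk RNA fewer cells of a type and less RNA per cell cannot be told apart.

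The genes around the 10 factors were counted from lists chosen with results of these data already known. At D6 4.14% of all genes passed, so 1 call among 29, 22 or 13 genes is near that share, and no count of calls in these lists is read as a result about the list. Among 29 tested known target genes of the factors, 26 had a D6 estimate below 0 and the median was -0.98, but 1 passed the test. That gene was Cited2, a transcriptional coregulator needed for heart septation, at 84.4 ± 6.02 CPM in GLI1 OE cells and 207 ± 5.05 CPM in D6 controls (a change of -1.29 ± 0.23 on the log2 scale, edgeR adjusted p = 0.00519). Of 22 cofactors 1 fell, Zfpm2, the FOG protein that binds GATA factors, at 6.78 ± 1.76 CPM in GLI1 OE cells and 20.4 ± 8.49 CPM in controls (-1.58 ± 0.40, edgeR adjusted p = 0.0372). The cofactor median was 0.01.

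Of 17 partner cardiac factors, 2 fell and 1 rose at D6, with a median of -0.66. Tbx2, a repressor of chamber genes, had 3.99 ± 0.956 CPM in GLI1 OE cells and 49.1 ± 18.1 CPM in controls (-3.62 ± 0.47, edgeR adjusted p = 0.000412). Irx4, a ventricular factor, had 0.461 ± 0.310 CPM in GLI1 OE cells and 16.9 ± 8.58 CPM in controls (-5.20 ± 0.98, edgeR adjusted p = 0.00681). Hey1, a Notch target that restrains GATA4, had 53.3 ± 6.29 CPM in GLI1 OE cells and 14.8 ± 4.42 CPM in controls, and so rose by 1.85 ± 0.31 on the log2 scale (edgeR adjusted p = 0.00308). Among 14 inducers of the factors, the ligand gene Fgf3 rose by 6.68 ± 1.02 on the log2 scale (edgeR adjusted p = 0.00149) and the WNT inhibitor gene Dkk1 fell by 2.17 on the log2 scale (edgeR adjusted p = 0.00782). Of 13 relatives of the factors 1 fell, the LIM-homeodomain gene Lhx2, at 1.24 ± 0.269 CPM in GLI1 OE cells and 2.95 ± 1.07 CPM in controls (-1.24 ± 0.31, edgeR adjusted p = 0.0380).

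The D8 comparison came after dox had been washed out. No member and no gene at all passed the edgeR test (0% of genes; 5.95% had an unadjusted p under 0.05, none of them a member), limma-voom called none either (0%), and DESeq2 called 40 genes (0.269%) and no member. The median of the 10 estimates was -0.06, beside 0.0067 for all genes, and 6 of the 10 were below 0, as were 48.8% of all estimates. The groups overlapped for every member, while for 32.2% of all genes they did not. GLI1 OE libraries 14 and 18 differed more from each other than any other libraries of 1 group, with a chi-square of 119 per gene. Smyd1 had 679 and 92.3 CPM in GLI1 OE libraries 14 and 18, against 469 and 274 CPM in control libraries 13 and 17. Gata5 had 177 and 33.0 CPM in the same GLI1 OE libraries, against 94.8 and 117 CPM in those controls. For both genes the 2 GLI1 OE libraries lay on either side of both controls.

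Library 14 over library 18 gave ratios above 1 for 9 of the 10 genes, among them 7.35 for Smyd1, 5.38 for Gata5, 4.05 for Mef2c, 2.97 for Gata6, 2.89 for Gata4 and 1.70 for Mef2a. Hopx alone was lower in library 14, at a ratio of 0.653. The 6 cardiomyocyte markers differed the same way, with a sum of 10056 CPM in library 14 and 981 CPM in library 18, against 10949 and 5250 CPM in control libraries 13 and 17. Their part in the result was not tested. Mef2a had the smallest unadjusted p, with 75.0 and 44.2 CPM in GLI1 OE libraries, against 87.2 and 70.5 CPM in controls (log2 fold change -0.40 ± 0.20, unadjusted p = 0.0602, edgeR adjusted p = 0.831). Isl1 had 60.6 and 31.1 CPM in GLI1 OE libraries, against 31.3 and 25.8 CPM in controls (0.69 ± 0.43, edgeR adjusted p = 0.878). It was higher in both pairs, as were 29.4% of all genes. Hopx had 50.1 and 76.6 CPM in GLI1 OE libraries, against 60.6 and 18.3 CPM in controls (0.68 ± 0.68, edgeR adjusted p = 0.926). Gata4 had 216 and 74.8 CPM in GLI1 OE libraries, against 193 and 220 CPM in controls, and its interval ran from -1.73 to 0.72. Without GLI1 OE library 14 the estimates of Smyd1, Gata5 and Mef2c were -2.03, -1.70 and -1.45, and without GLI1 OE library 18 they were 0.87, 0.74 and 0.58, so the direction of these 3 estimates rested on 1 library.

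At D12 no member and no gene passed the edgeR test either (0% of genes; 5.64% had an unadjusted p under 0.05, none of them a member), while DESeq2 called 14 genes (0.094%) and limma-voom 1 (0.00672%), none of them members. Of the 10 estimates 9 were below 0, as were 50.7% of all estimates, with a median of -0.33, beside -0.0038 for all genes. The groups did not overlap for 5 genes that were lower in GLI1 OE, namely Gata4, Gata6, Hand2, Mef2a and Mef2c, as for 16.4% of all genes, and for 1 that was higher, Isl1, as for 17.9% of all genes. Values are for GLI1 OE libraries 10 and 20, against control libraries 9 and 19. Isl1 had 16.5 and 23.1 CPM in GLI1 OE cells, against 9.75 and 12.5 CPM in controls, so both GLI1 OE libraries were above both controls. Its log2 fold change was 0.83 ± 0.45, with an interval from -0.13 to 1.79 (unadjusted p = 0.0834, edgeR adjusted p = 0.908).

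Gata4 had 176 and 83.4 CPM in GLI1 OE cells at D12, against 212 and 231 CPM in controls (-0.77 ± 0.57, edgeR adjusted p = 0.952). Gata6 had 239 and 201 CPM in GLI1 OE cells, against 338 and 266 CPM in controls (-0.46 ± 0.40, edgeR adjusted p = 0.971). Both GLI1 OE libraries of each gene lay below both controls, with library 20 the lower one. Mef2a had 140 and 113 CPM in GLI1 OE cells, against 157 and 157 CPM in controls, with an interval from -0.73 to 0.11. Hand2 had 101 and 85.2 CPM in GLI1 OE cells, against 114 and 113 CPM in controls, and Mef2c had 111 and 106 CPM, against 116 and 143 CPM. Smyd1 (151 and 72.8 CPM in GLI1 OE cells, 106 and 213 CPM in controls), Hand1, Gata5 and Hopx had overlapping groups. The cardiomyocyte markers summed to 5231 and 2516 CPM in GLI1 OE libraries 10 and 20, against 4192 and 10212 CPM in control libraries 9 and 19, and their part in the result was not tested. Beside the higher Isl1, the neural and motor neuron markers summed to 22.7 to 24.7 CPM in GLI1 OE libraries at D12, against 9.33 to 21.6 CPM in controls, with Olig2 and Mnx1 at 0 in both groups and Sox1 and Neurog2 at 0 in the controls. The smooth muscle and mesenchyme markers summed to 13899 to 16024 CPM in GLI1 OE libraries, against 17367 to 17653 CPM in controls. The skeletal muscle markers summed to 3.63 to 4.29 CPM in GLI1 OE libraries, against 1.54 to 1.97 CPM in controls. The blood markers summed to 11.6 to 14.2 CPM in GLI1 OE libraries, against 15.4 to 17.1 CPM in controls. The neural, mesenchyme, skeletal muscle and blood sums did not overlap between the groups, and their part was not tested. Of the 29 known targets 26 again had estimates below 0 at D12 and 20 at D8, with medians of -0.74 and -0.42, and none passed at either day.

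The tests of the difference between days gave no member. At D8 the effect of GLI1 OE differed from that at D6 in 0 members and 0.631% of genes, and at D12 in 0 members and 0.604% of genes. For Hopx, the member with the smallest p, the D8 effect minus the D6 effect was 1.60 ± 0.91 (interval -0.37 to 3.56, edgeR adjusted p = 0.855). For Gata4 the D8 difference was 0.98 ± 0.74 and the D12 difference 0.71 ± 0.74 (edgeR adjusted p = 0.936 and 0.887). Both interactions use the D6 libraries.

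The untreated controls show how the genes behave in the course of differentiation. Levels of different genes are set side by side only per unit of length. In the deposited TPM of the 4 D5 controls the order was Smyd1 (168 ± 96.7 TPM), Hand1 (150 ± 177), Hand2 (122 ± 54.8), Gata4 (99.6 ± 57.1), Mef2c (81.2 ± 24.0), Gata6 (64.1 ± 21.8), Gata5 (47.3 ± 25.4), Isl1 (44.7 ± 22.2), Mef2a (32.6 ± 3.62) and Hopx (11.7 ± 6.24; SD, n = 4). Neighbours in this order differed by less than the SD of at least 1 of them, apart from Mef2a and Hopx. In D12 controls the length-scaled CPM ran from Gata6 (218), Gata4 (150) and Mef2a (120) at the top to Gata5 (21.7) and Isl1 (9.98) at the bottom.

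**Figure D4:**
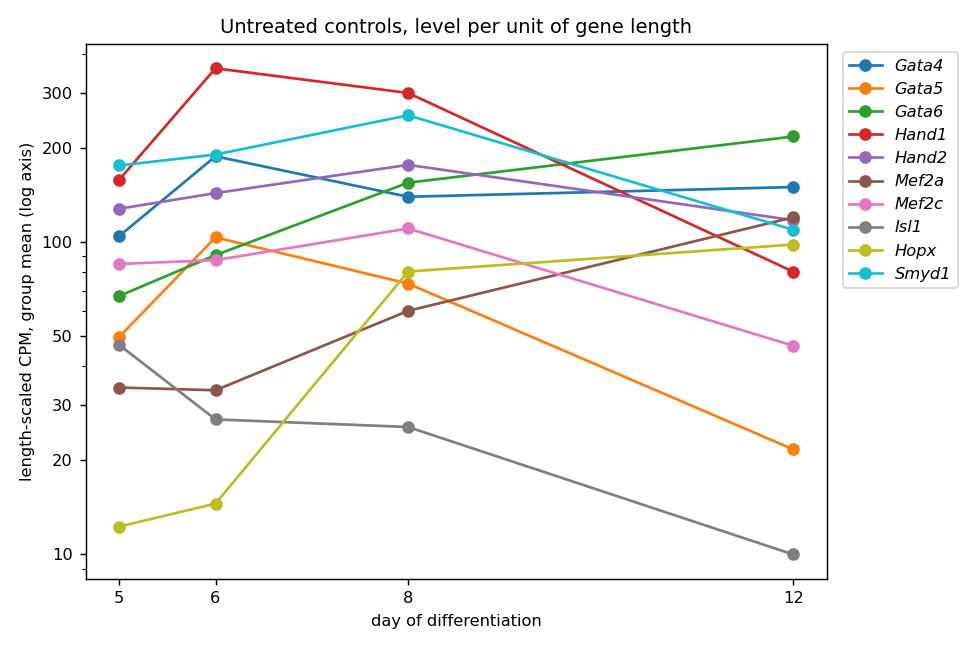
Mean level per unit of gene length in untreated controls at D5, D6, D8 and D12, as CPM divided by the length factor that the D5 counts and TPM give together (log axis; lines join the group means of a gene). Mef2a, Gata6 and Hopx each have their own highest mean at D12, and Hopx runs from 12.3 at D5 to 98.3 at D12. Isl1 has the lowest D12 mean of all genes shown (9.98).

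Mef2a passed the test at both later steps. It had 87.2 and 70.5 CPM in D8 controls, against 40.1, 45.0 and 46.6 CPM in D6 controls, with no overlap. The log2 fold change was 0.85 ± 0.18 (edgeR adjusted p = 0.00264), and 2 members and 34.8% of all genes passed in this comparison. It rose again to 157 and 157 CPM in D12 controls, against 87.2 and 70.5 CPM in D8 controls (1.00 ± 0.20, edgeR adjusted p = 0.00163). The GLI1 OE libraries of D12 were also above those of D8, at 140 and 113 CPM, against 75.0 and 44.2 CPM.

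Hopx, the other gene that rose at D8, had 60.6 and 18.3 CPM in D8 controls, against 2.55, 12 and 6.82 CPM in D6 controls. The groups did not overlap (log2 fold change 2.47 ± 0.64, edgeR adjusted p = 0.00881). Without D8 control library 13, Mef2a (0.68, edgeR adjusted p = 0.0516) and Hopx (1.35, 0.202) did not pass, in a comparison that then rests on 1 D8 library. That library also had the higher cardiomyocyte marker sum of its group, 10949 CPM against 5250 CPM in library 17, whose part was not tested. The blood markers summed to 44.9 to 62.3 CPM in D8 controls, against 227 to 750.4 CPM in D6 controls, and their part was not tested. Gata6 had 194 and 235 CPM in D8 controls, against 129, 106 and 142 CPM in D6 controls, with no overlap (0.77 ± 0.36, edgeR adjusted p = 0.108; 0.0109 with the D8 and D6 controls alone in the fit, where 3 members and 40% of genes passed). In all 4 genes did not overlap and were higher at D8, Gata6, Mef2a, Mef2c and Hopx, as for 32% of all genes.

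Isl1 fell at the last step, with 9.75 and 12.5 CPM in D12 controls, against 31.3 and 25.8 CPM in D8 controls (log2 fold change -1.36 ± 0.45, edgeR adjusted p = 0.0297). The groups did not overlap. Several marker sums moved beside Isl1 at this step. The smooth muscle and mesenchyme markers summed to 17367 to 17653 CPM in D12 controls, against 4326 to 7597 CPM in D8 controls. The pluripotency markers summed to 3.94 to 6.90 CPM in D12 controls, against 37.2 to 52.1 CPM in D8 controls, and the blood markers to 15.4 to 17.1 CPM, against 44.9 to 62.3 CPM. Isl1 is also a motor neuron gene, and 3 of the 5 neural and motor neuron markers tested fell, Dcx, Map2 and Tubb3 (edgeR adjusted p = 0.00665, 0.0188 and 0.0275). The whole neural list summed to 9.33 and 21.6 CPM in D12 controls, against 20.7 and 25.0 CPM in D8 controls, with overlap, and Sox1, Olig2, Mnx1 and Neurog2 were at 0 in both groups. The part of these markers in the result was not tested. With Mef2a, Isl1 was 1 of 2 members that passed between D12 and D8 controls, as did 36.3% of all genes. Leaving out any 1 of the 4 libraries ended the Isl1 call (edgeR adjusted p from 0.0678 to 0.170), and limma-voom, which called 35.9% of genes, gave 0.0893. Gata5 had 39.5 and 23.0 CPM in D12 controls, against 94.8 and 117 CPM in D8 controls (-1.76 ± 0.68, edgeR adjusted p = 0.0583). Mef2c had 116 and 143 CPM in D12 controls, against 328 and 287 CPM in D8 controls (-1.25 ± 0.47, edgeR adjusted p = 0.0501, or 0.0294 with the replicate block, under which 37.2% of genes passed). Neither group pair overlapped. DESeq2 called both (adjusted p = 0.0188 for Gata5 and 0.0212 for Mef2c) and 39.7% of genes, and a fit of the 2 control groups alone called them and Hand1 and 35.8% of genes. In all 6 genes did not overlap and were lower at D12, Gata5, Hand1, Hand2, Mef2c, Isl1 and Smyd1, as for 37.7% of all genes, and 2 were higher, Gata6 and Mef2a, as for 34.7%.

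No member passed between D6 and D5 controls, where 18.4% of all genes did, and 1 member, Isl1, had an unadjusted p under 0.05 (31.4% of genes). Isl1 had 24.9, 33.0 and 32.6 CPM in D6 controls, against 54.5, 40.9, 26.0 and 87.6 CPM in D5 control libraries 1 to 4 (log2 fold change -0.79 ± 0.34, edgeR adjusted p = 0.122). The groups overlapped through D5 library 3. Hand1 had 369, 101 and 415 CPM in D6 controls, against 35.2, 34.7, 356 and 93.6 CPM in the D5 controls, where library 3 stood well above the others. In that library the blood markers summed to 249.8 CPM, against 6.90, 8.99 and 71.7 CPM in libraries 1, 2 and 4, and the endothelial markers to 440.3 CPM, against 200.2, 207 and 222 CPM, and their part was not tested. Without D5 library 3, Hand1 (2.44, edgeR adjusted p = 0.0157) and Isl1 (-1.02, 0.0280) passed, with 18.4% of genes. Gata4 split the D5 controls into 80.2 and 74.2 CPM in libraries 1 and 2 and 227 and 235 CPM in libraries 3 and 4, and Gata5 did likewise (45.0, 31.8, 105 and 105 CPM). Smyd1 ran the other way, with 416 and 345 CPM in libraries 1 and 2 and 110 and 156 CPM in libraries 3 and 4. The counts of libraries 1 and 2 were closer to each other (chi-square 6.70 per gene) than those of any other D5 pair (49.1 to 91.6). Their difference was larger than counting noise, which does not show that they came from separate cultures. Both entered as samples, so the 4 D5 libraries may hold fewer than 4 independent samples. With libraries 1 and 2 summed, 9 of the 10 member results stayed the same and the estimate of Mef2a changed sign. The cardiomyocyte markers summed to 3172 and 3102 CPM in libraries 1 and 2 and to 1060 and 1531 CPM in libraries 3 and 4.

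Over all 7 groups, Gata4 (278 CPM), Gata5 (149 CPM) and Hand1 (295 CPM) had their highest mean in D6 controls, Hand2 (171 CPM) and Mef2c (308 CPM) in D8 controls, Hopx (63.3 CPM) and Smyd1 (385 CPM) in D8 GLI1 OE cells, Gata6 (302 CPM) and Mef2a (157 CPM) in D12 controls and Isl1 (52.2 CPM) in D5 controls. The lowest mean was in D6 GLI1 OE cells for Gata4 (99.2 CPM), Gata6 (74.0 CPM), Hand2 (70.2 CPM), Mef2a (41.4 CPM), Hopx (3.77 CPM) and Smyd1 (107 CPM), in D12 GLI1 OE cells for Gata5 (24.5 CPM), Hand1 (50.2 CPM) and Mef2c (109 CPM), and in D12 controls for Isl1 (11.1 CPM). Most neighbours in these orders overlapped. For Mef2a the D12 controls, D12 GLI1 OE cells and D8 controls did not overlap as neighbours. For Hopx the step between D8 controls (39.5 CPM) and D6 controls (7.12 CPM) was the single one without overlap. On CPM of total counts the order of some groups changed for Gata4, Gata5, Gata6, Mef2a and Smyd1, and for Mef2a the lowest mean was then that of D5 controls and for Smyd1 that of D12 GLI1 OE cells.

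Genes whose 7 group means of log2 CPM ran most like those of each factor were sought among 6436 others, and the correlations are descriptions, over groups that share days and libraries. For Gata4 they were Spnb1 (r = 0.96) and the cardiac troponin gene Tnnt2 (0.94), for Gata5 Fermt3 (r = 0.995) and Srd5a1 (0.98), and for Gata6 Kcnj11 (0.995) and Adamtsl2 (0.99). For Hand1 they were Hapln4 (0.98) and Unc45b (0.97), and for Hand2 Plekha6 (0.98) and Palld (0.97). For Mef2a they were Cd81 (0.998) and Tpp1 (0.997), for Mef2c Hapln1 and Frmd4b (0.99 each), and for Isl1 Il17rd and Zfp709 (0.99 each). For Hopx they were Sertad3 and Stat5a (0.99 each), and for Smyd1 Reep1 and the cardiac coactivator gene Myocd (0.99 each). Over the 18 single libraries the same genes gave lower values for Tnnt2 with Gata4 (0.43), Hapln4 and Unc45b with Hand1 (0.33 and 0.31) and Palld with Hand2 (0.21), while the other 16 lay between 0.66, for Hapln1 with Mef2c, and 0.98, for Cd81 with Mef2a.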

How the data were processed

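Per the labels, polyA RNA was made into TruSeq libraries and read as stranded single-end reads of 50 bases. The authors deposited raw read counts per gene symbol for 18 libraries, which the tests use as deposited, and TPM for the 4 D5 controls. The authors' deposited tables of log2 fold changes and p-values were printed only where named. The aligner, counter, strand setting and genome build were not given in the sources used here, so reads of genes that overlap a member in GENCODE M21 (Lysmd4 for Mef2a, Krcc1 for Smyd1, and noncoding partners of Gata5, Gata6, Hand2 and Hopx) may be shared. The counts columns carry library numbers, and no column was without a group.

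The 10 members and the 14 lists were chosen with earlier results of these data known. In R 4.3.3 with edgeR 4.0.16, genes passing filterByExpr (minimum count 10) were scaled by TMM, and the 18 libraries entered 1 robust quasi-likelihood model with the 7 groups as terms. P-values were Benjamini-Hochberg adjusted within each of 8 contrasts over 14892 genes and called under 0.05. CPM uses the same scaling, and correlations use log2 CPM with a prior count of 2. Where a group has 2 libraries, the spread is largely that of the other groups. Each of the 10 members was tested in every contrast. Values of all 10 are printed for GLI1 OE over control at D6, and of a part of them in the other contrasts. From each list came up to 3 called genes of smallest adjusted p, or the most expressed one where none was called. The 2 genes most like each member are also given. From D8 and D12 a part of the list genes is not printed. The fits were tested on simulated data.

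Adjacent library numbers were taken as pairs after a check of deviations from group means, with a correlation of 0.45 to 0.62 in the 3 D6 pairs, 0.49 at D8 and -0.23 at D12. Alternatives were RLE size factors, no filter, DESeq2 1.42.0, limma-voom (limma 3.58.1), the compared groups alone, the replicate block and leaving out each library.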

Additional observations from a re-analysis of the deposited data

How the results depend on the processing

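Under RLE size factors and without the filter, all 80 member results kept their direction and side of the threshold. The count of members called at D6 was 0 with edgeR (4.14% of all genes passed) and 1 with DESeq2 (6.92%). It was 2 with the D6 groups alone (9.19%) and 7 with the D6 libraries alone and the replicate block (33.6%). Between D12 and D8 controls it was 2 with edgeR (36.3% of all genes passed) and 4 with DESeq2 (39.7%). It was 1 with limma-voom (35.9%) and 5 with the 2 groups alone (35.8%). The main fit called 18.4% of all genes between D6 and D5 controls and 34.8% between D8 and D6 controls. Leaving out 1 library gave 0 to 2 members between D6 and D5 controls, 0 to 2 between D8 and D6 controls and 1 in each fit between D12 and D8 controls. D5 library 3, D8 control library 13 and each library of the Isl1 comparison at D12 decide these. Where an arm keeps 1 library, it is assumed to vary like the other groups. The replicate block over all days changed the call of Mef2c between D12 and D8 controls and of no other member, and with it 667 genes passed at D6. D12 numbers correlated at -0.23, and with those pairs crossed, an alternative chosen after seeing the data, 859 genes passed at D6, 0 at D12 and no member at either day.

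Genes called at D6 numbered 616, and 1030 with DESeq2, 1254 with the D6 groups alone, 4576 with the D6 libraries alone and the block, and 330, 365 and 370 without GLI1 OE library 16, control library 15 and control library 3. At D8 the count of 0 became 40 with DESeq2, 49 without GLI1 OE library 14 and 1 without control library 13, and at D12 it became 14 with DESeq2, 1 with limma-voom and 5 without GLI1 OE library 10. Between D6 and D5 controls 2738 genes became 1561 without D6 library 15 and 1789 without library 3. Between D8 and D6 controls 5178 became 2761 without D8 library 13, and between D12 and D8 controls 5411 became 3492 without D8 library 17 and 3599 without D12 library 19. The 94 and 90 interaction calls became 233 and 281 with DESeq2, and the 90 at D12 became 208 with the groups alone. Leaving out 1 library gave as few as 48 and 12 interaction calls.

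No reversed estimate had been called, and the cause was not tested. Smyd1 at D8 was -0.52 with limma-voom and -0.51 with the replicate block. Mef2a between D6 and D5 controls was 0.0079 with D5 libraries 1 and 2 summed. Without D8 GLI1 OE library 18 and control library 17, an alternative chosen after seeing the data, Gata4 was 0.17, Gata5 0.91, Gata6 0.63, Hand2 0.62, Mef2c 0.49 and Hopx -0.27. Leaving out 1 library, the D8 effect ran from -1.48 to 0.069 for Gata4, -1.70 to 0.74 for Gata5, -1.11 to 0.48 for Gata6, -0.54 to 0.64 for Hand1, -0.92 to 0.18 for Hand2, -1.45 to 0.58 for Mef2c and -2.03 to 0.87 for Smyd1. At D12 it ran from -0.67 to 0.088 for Gata5, -1.17 to 0.12 for Hand1, -0.40 to 0.29 for Hopx and -1.13 to 0.086 for Smyd1. Between D6 and D5 controls it ran from -0.022 to 0.51 for Hand2, -0.37 to 0.65 for Hopx, -0.071 to 0.038 for Mef2a, -0.092 to 0.25 for Mef2c and -0.14 to 0.45 for Smyd1, between D8 and D6 controls from -0.75 to 0.091 for Hand1, -0.15 to 0.63 for Hand2, -0.24 to 0.040 for Isl1 and -0.033 to 0.74 for Smyd1, and between D12 and D8 controls from -0.31 to 1.41 for Hopx. The D8 effect minus the D6 effect ran from -0.80 to 1.65 for Gata5, -0.34 to 1.26 for Gata6, -0.023 to 0.96 for Isl1, -0.76 to 0.027 for Mef2a, -0.93 to 1.12 for Mef2c and -0.64 to 2.27 for Smyd1.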

Other observations

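Within groups, libraries that deviated from their group mean for one factor often did so for others. Over the 18 libraries, the correlation of deviations in log2 CPM was 0.88 for Gata4 and Gata5, 0.91 for Gata5 and Gata6, 0.79 for Gata6 and Hand2, and 0.82 for Gata4 and Hand1. Mef2a and Smyd1 deviated together at 0.91 and Mef2c and Smyd1 at 0.73, while Gata4 and Smyd1 were at -0.0018 and Hand1 and Hopx at -0.61. Over the 7 group means the order was another: Hand2 and Smyd1 were at 0.92, Gata6 and Mef2a at 0.90, Gata6 and Hopx at 0.90 and Mef2a and Isl1 at -0.87. These values describe 45 pairs of genes measured in the same libraries and carry no test.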
